A study of Homo sapiens with 40 samples.

Results

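The genes described here are the protein-coding genes of a stretch of the long arm of chromosome 11, from 11q12 to 11q14, in human HEK293A cells with and without PARP1. A gene was a member if it started between positions 61430000 and 78140000 of chromosome 11 (hg38, GENCODE 44), a window of 16.71 Mb, and had a mean of at least 10 raw counts over the 40 libraries. The symbols RELA, FOSL1, FEN1, BAD, MUS81, NADSYN1 and SLC3A2 and those starting with RPL, RPS, MRPL, NDUF, COX or SF3 were left out. This gave 231 members among 58395 genes listed. The window holds 343 listed protein-coding genes, of which 19 were left out by symbol and 93 were under the count minimum. The stretch was selected on the genotype differences of its genes, which had lower counts in the knockout clone in these same libraries, so the genotype differences below describe how the members were found and carry no test. The rule does not name the responses to treatment, which share libraries with those differences.

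RNA sequencing of HEK293A, an adherent line derived from human embryonic kidney, was done for wild-type (WT) cells and for 1 clone in which part of PARP1 was deleted with CRISPR/Cas9 (PARP1-KO). The titles call the clone a knockout, and another label field calls it a knockdown. Cells of each genotype received no treatment, 0.1% DMSO, the TOP1 poison topotecan (Tpc), the TDP1 inhibitor OL9-119 at 5 μM, or both compounds, for 5 h or slightly longer. All cells given a compound carried 0.1% DMSO as well, according to the labels and the methods, so the untreated cells alone were without this solvent. Tpc was given at 100 nM to WT cells and at 50 nM to PARP1-KO cells, and each of the 10 conditions had 4 replicates. Since only 1 clone was sequenced, PARP1 genotype and other features of that clone cannot be told apart. The replicates are called biological in the labels and technical in the methods, so p-values measure the spread between these samples.

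PARP1 encodes the poly(ADP-ribose) polymerase that marks DNA breaks for repair, and tyrosyl-DNA phosphodiesterase TDP1 clears TOP1 that Tpc has trapped on DNA. The 11q12 to 11q14 region holds genes of the cytoskeleton, lipid desaturation, membrane traffic and chromatin, and its 11q13.3 part, around the cyclin D1 gene CCND1, is known for copy-number gains in carcinomas. Only RNA was measured here. In bulk RNA, fewer cells with a transcript and less transcript per cell cannot be told apart.

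The upstream sequences of 4 members are given as examples, picked by their values and not as typical of all members. They were taken from RefSeq (GRCh38.p14) and cover the 250 bases before the start annotated there, on the strand of the gene. For EFEMP2 and NXF1 these bases lie inside the GENCODE span of the gene given below, whose start is further upstream. EFEMP2 and EHBP1L1 are shown as members with some of the lowest PARP1-KO/WT ratios, NXF1 as the well-expressed member with the highest ratio, and CFL1 as a member that fell after drug treatment in WT cells. Capitals mark every match on either strand to GGGCGG (the core of a GC box), to CCAAT (a promoter element named after these letters) or to TATAAA (the core of the TATA element), and adjoining GGGCGG matches can overlap. A match is a run of letters and nothing was measured on its binding.

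EFEMP2 (chr11:65872801-65873050, minus strand): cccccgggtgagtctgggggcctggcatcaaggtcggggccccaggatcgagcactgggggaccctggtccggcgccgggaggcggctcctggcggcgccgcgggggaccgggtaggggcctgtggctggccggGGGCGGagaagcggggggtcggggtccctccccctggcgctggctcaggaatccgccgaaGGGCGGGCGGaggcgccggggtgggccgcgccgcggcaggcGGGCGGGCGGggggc
EHBP1L1 (chr11:65575803-65576052, plus strand): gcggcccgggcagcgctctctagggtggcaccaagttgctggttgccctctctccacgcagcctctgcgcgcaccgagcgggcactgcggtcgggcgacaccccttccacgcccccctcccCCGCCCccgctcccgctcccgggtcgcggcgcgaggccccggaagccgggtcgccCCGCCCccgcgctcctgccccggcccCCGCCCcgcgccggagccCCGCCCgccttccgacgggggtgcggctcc
NXF1 (chr11:62805441-62805690, minus strand): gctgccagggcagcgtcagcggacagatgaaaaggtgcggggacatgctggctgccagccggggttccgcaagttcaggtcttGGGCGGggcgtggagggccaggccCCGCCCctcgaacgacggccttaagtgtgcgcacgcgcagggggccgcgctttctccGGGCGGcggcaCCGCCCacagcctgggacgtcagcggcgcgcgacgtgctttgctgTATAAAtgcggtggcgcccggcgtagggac
CFL1 (chr11:65858181-65858430, minus strand): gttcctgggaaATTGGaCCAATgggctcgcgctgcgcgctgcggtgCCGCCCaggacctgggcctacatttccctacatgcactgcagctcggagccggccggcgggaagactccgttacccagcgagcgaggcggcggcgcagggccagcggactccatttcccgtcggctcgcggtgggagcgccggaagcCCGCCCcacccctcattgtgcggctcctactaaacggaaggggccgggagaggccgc

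The EFEMP2 promoter had a GC content of 81.6% and 5 matches to GGGCGG, and that of EHBP1L1 81.2% and 4 matches. NXF1 had 70.8%, 4 such matches and the only TATAAA of the 4, and CFL1 had 70.0%, 2 matches to GGGCGG and 2 to CCAAT. The RefSeq table holds 232 promoters of 175 members, 41 of them with more than 1 start. The median GC content of these promoters was 67.0%, against 58.0% over all 35116 promoters of the table. GGGCGG stood in 72.4% of the members' promoters and in 42.6% of all promoters, CCAAT in 37.5% and 32.01%, and TATAAA in 2.16% and 10.7%. Member promoters therefore had more G and C than this whole set, which was not limited to the members' biotype and counts. Promoters of a set matched in both were not compared. The members' transcripts were also richer in G and C than those of other chromosomes. Median GC content of the longest transcript was 57.3% in members. It was 47.8% in the 12615 genes of other chromosomes that met the same biotype and count rules.

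PARP1 served as the check of the labels. Its normalized level, in CPM (counts relative to the normalized library size), lay between 737 and 887 in the 20 WT libraries and between 30.4 and 46.6 in the 20 PARP1-KO libraries, without overlap. Total counts per library ran from 3455043 to 20379777. Of 7 markers of HEK293 cells, KRT8, KRT18, VIM and NEFL were well detected in all libraries, with the lowest value at 189 CPM for KRT18. PAX2 was low, with medians of 2.66 CPM in WT and 1.15 CPM in PARP1-KO. LHX1, with medians of 12.9 and 9.80 CPM, and NEFM, with 7.78 and 6.60 CPM, were also far below those 4. In every PARP1-KO library KRT18 was lower, and VIM higher, than in any WT library. The 4 leukocyte markers summed to at most 7.16 CPM in any library, the 3 fibroblast markers to at most 6.26 CPM, the 2 endothelial ones to at most 2.67 CPM and the 2 erythroid ones to at most 0.376 CPM.

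The label that these genes are lower in the knockout held for most members but not for all. Averaged over the 5 treatments, the median log2 PARP1-KO/WT difference of the 231 members was -0.68, which corresponds to 62.4% of the WT level, with quartiles at -0.91 and -0.36. The fitted difference was below 0 in all 5 treatments for 181 members, above 0 in all 5 for 11, and of mixed sign for 39. All 20 PARP1-KO libraries lay below all 20 WT libraries for 44 members, or 19.0%. Over all tested genes that share was 1.56%, and among the genes of other chromosomes with the members' biotype and counts it was 2.69%.

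Read as a share of each library, the members took 1.65% to 2.00% of all counts in the WT libraries, with a median of 1.85%. In PARP1-KO libraries they took 1.13% to 1.32%, with a median of 1.25%. The genotypes did not overlap in any treatment. This share uses no normalization between libraries, but counts of a few abundant members weigh most in it.

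By treatment, the members' median log2 difference was -0.68 in untreated cells, -0.68 under DMSO, -0.69 under Tpc, -0.72 under OL9-119 and -0.45 under both compounds. Genes of other chromosomes had medians from 0.02 to 0.05 in the same comparisons. The value under the combination was the one nearest 0 in this fit but not with offsets for exonic length and GC, which gave -0.53 under OL9-119 and -0.54 under both compounds, with 90 and 94 members lower. Its replicates differed in the same sense, since the median deviation of the members from their overall mean lay between 0.31 and 0.53 log2 units in untreated WT libraries and between 0.11 and 0.33 in WT libraries with both compounds. In PARP1-KO cells these ranges were -0.39 to -0.20 and -0.34 to -0.17. These treatments thus overlapped within each genotype, whereas the genotypes did not.

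Counts of members past the threshold are given for completeness, because the same contrasts chose the window. With a quasi-likelihood test of edgeR and an adjusted p under 0.01, 119 members were lower in untreated PARP1-KO cells, 112 under DMSO, 113 under Tpc, 112 under OL9-119 and 68 under both compounds. Over all 28922 tested genes the shares lower were 5.74%, 5.75%, 4.34%, 4.83% and 3.71%, in the same order. Members called higher numbered 2, 4, 0, 1 and 0, while 5.97%, 6.67%, 4.17%, 4.94% and 3.56% of all tested genes were higher. The 2 zero counts, for Tpc and the combination, became 0 and 2 with DESeq2. An unadjusted p under 0.05 was reached by 170 members with Tpc and 132 with the combination, or 73.6% and 57.1%. Over all tested genes these shares were 26.8% and 26.6%, and over genes of other chromosomes 40.2% and 37.9%. Both directions are pooled in these counts, so they do not bear on the members called higher.

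The members with the lowest ratios among those with at least 50 mean counts were EFEMP2, LIPT2, EHBP1L1, MAP6, RHOD and DGAT2. EFEMP2 encodes fibulin-4, an extracellular matrix protein needed for elastic fibres, and occupies positions 65866441 to 65873592 on the minus strand. Without treatment its WT replicates had 48.6, 60.4, 59.4 and 51.1 CPM, and the PARP1-KO replicates had 9.10, 7.48, 7.20 and 7.996 CPM. The 2 genotypes were separated by far more than the spread within either. Over all treatments EFEMP2 ranged from 28.8 to 73.2 CPM in WT, whereas PARP1-KO values lay between 5.54 and 11.1 CPM, and its mean log2 difference was -2.69. The 5 single differences lay between -2.81 and -2.53.

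EHBP1L1, which codes for a protein that links Rab8 vesicles to the membrane-shaping machinery, had 45.1, 51.0, 40.6 and 45.8 CPM in untreated WT cells and 9.57, 11.7, 12.8 and 13.33 CPM in untreated PARP1-KO cells. MAP6, a protein that stabilizes microtubules in neurons, had 41.9, 57.3, 58.5 and 60.8 CPM against 19.9, 11.9997, 16.6 and 13.9 CPM. In neither gene did the genotypes overlap in any of the 40 libraries. Their mean log2 differences were -1.91 and -1.69. RHOD, a small GTPase of endosome movement, and LIPT2, which makes the lipoyl cofactor of mitochondrial enzymes, were also separated in all libraries, with mean log2 differences of -1.69 and -1.96. DGAT2, which catalyses the last step of triglyceride synthesis, averaged -1.65, with a PARP1-KO maximum of 8.33 CPM just above the WT minimum of 8.03 CPM.

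At the other end stood NXF1, IL18BP, PGM2L1, WDR74, LTO1 and SF1. NXF1, the export receptor of messenger RNA (positions 62792123 to 62806302, minus strand), had 100.4, 113, 73.6 and 92.5 CPM in untreated WT replicates. The PARP1-KO replicates had 123.4, 145, 120.0 and 143 CPM, all above the WT values. Under Tpc the genotypes overlapped, with 125.8 to 149.96 CPM in WT and 124.1 to 169 CPM in PARP1-KO. The mean of its 5 log2 differences was 0.37. SF1, a splicing factor that binds the branch point, had a mean log2 difference of 0.19 at a median of 253 CPM in WT and 289 CPM in PARP1-KO libraries. IL18BP, PGM2L1 and LTO1 were of mixed sign over the treatments, with means of 0.34, 0.32 and 0.20, and WDR74 averaged 0.21.

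Per kilobase of exon, the members with the highest WT level were FTH1 at 485 CPM per kb, GSTP1 at 393, FAU at 188, GANAB at 166 and RAB1B at 130 CPM per kb. FTH1, the heavy chain of ferritin, had a median of 885 CPM in WT (780 to 1532) and of 733 CPM in PARP1-KO (644 to 817). GSTP1, a glutathione transferase, had 617 CPM (466 to 1185) against 312 CPM (282 to 346). The FTH1 ranges overlapped and the GSTP1 ranges did not. GANAB, the catalytic subunit of endoplasmic reticulum glucosidase, and RAB1B, which acts in transport from that compartment to the Golgi, were also without overlap, with mean log2 differences of -0.85 and -1.08. FAU, which encodes a ribosomal protein fused to a ubiquitin-like peptide, averaged -0.21, and its ranges of 206 to 600 CPM in WT and 199 to 298 CPM in PARP1-KO overlapped widely.

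Along the chromosome, the reduction was spread over the whole window and did not stop at its ends. In steps of 1 Mb from the lower end, all 17 medians of the mean log2 difference were below 0, from -0.82 in the 11th step, with 10 members, to -0.38 in the 16th, with 7 members. The 5th and 6th steps held 30 and 23 members, and each of these 53 had a mean difference below 0. In the 5 Mb before the window 39 genes had a median of -0.54, in the 5 Mb after it 9 genes had -0.50, and 18 genes 5 to 10 Mb after it had -0.26. Over the whole chromosome the 300 genes before the window had a median of -0.41 and the 223 after it -0.48. The share of genes lower in all 5 treatments was 78.4% for members, 63.7% before the window, 64.6% after it and 26.8% on other chromosomes.

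Genes next to the limits had the following mean log2 differences. Just inside the lower end were SDHAF2 at -0.63, PPP1R32 at 1.38 and LRRC10B at -0.70, and just outside it CPSF7 at -0.37, TMEM216 at -0.51 and TMEM138 at -0.52. At the upper end ALG8 (-0.69), KCTD14 (1.56) and INTS4 (-0.07) were inside, and KCTD21 (-0.45), USP35 (-0.58) and GAB2 (0.66) were outside. PPP1R32 rested on few reads, with counts of 1, 0, 0 and 1 in the WT DMSO libraries against 31, 35, 26 and 34 in the PARP1-KO DMSO libraries. At the count limit the members nearest to it were KLHL35 with a mean of 10.6 counts (-2.02), LRRC10B with 10.75 and MYEOV with 12.4 (-0.01). Just under the limit were ACTN3 with 9.58 counts (2.99), FERMT3 with 8.60 (0.03) and BATF2 with 8.23 (-1.38).

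**Figure D1:**
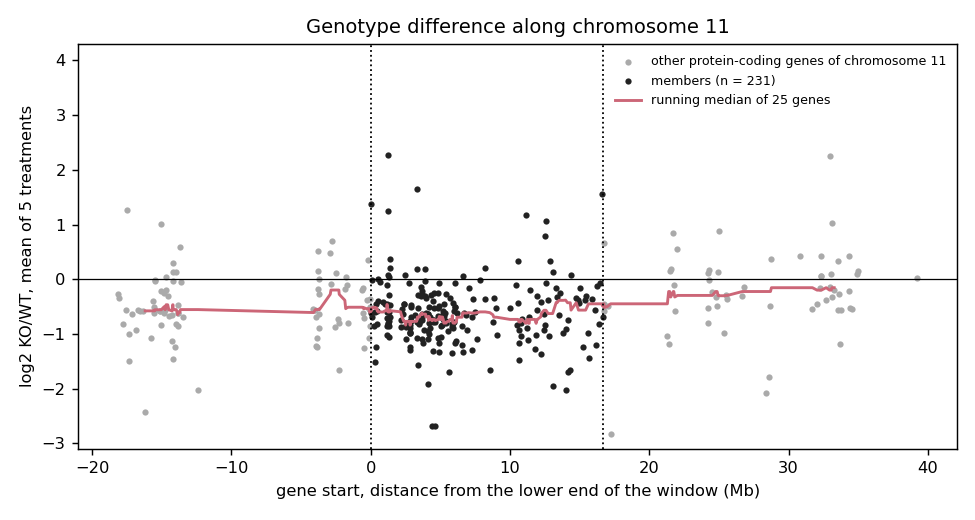
Mean of the 5 log2 PARP1-KO/WT differences against the distance of each gene's start from the lower end of the window (Mb), for the members (black) and other protein-coding genes of chromosome 11 (grey), with a running median of 25 genes in red and the window ends dotted (values beyond ±3 are drawn at ±3). The running median stays below 0 on both sides of the window as well as in it.

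When chromosomes are compared, chromosome 11 as a whole had the lowest median of the nuclear chromosomes, at -0.52 over 773 genes. Chromosome 4 followed at -0.41 over 493 genes, and chromosome 19 had the highest value at 0.29 over 1000 genes. Relative to the GC class the order of the lowest pair turned, with -0.57 for chromosome 4 and -0.50 for chromosome 11. The 13 mitochondrial genes had a median of -0.75. Within the window the genes the rule left out behaved in part like the members. The 19 genes left out by symbol had a median of -0.40, with 15 of them lower in all 5 treatments. The 28 genes of types other than protein-coding that reached the count minimum had -0.17 and 11, and 59 tested protein-coding genes under the minimum had 0.52 and 5. Members with under 50 mean counts were less uniform too, since 13 of 31 were lower in all treatments, against 168 of 200 with more counts. The number of genes detected ran from 16029 to 23183 in WT libraries, whereas PARP1-KO libraries had 18730 to 26531.

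The GC content of the transcripts moved with the genotype as well. In untreated cells, genes of other chromosomes with up to 40% GC had a median log2 difference of 0.27, and those with 60% to 65% GC had -0.19. Members of these classes had -0.38 and -0.78. With Tpc + OL9-119 the same classes of other chromosomes had 0.07 and 0.04, and members had -0.39 and -0.58. Members were thus below the other chromosomes in each of these GC classes. Relative to the median of other-chromosome genes in the same 5-point GC class, the members' median over the 5 treatments was -0.58, or 66.8% of WT, that of the genes before the window -0.41 and that of the genes after it -0.57. By treatment the value relative to the GC class was -0.59, -0.61, -0.58, -0.53 and -0.49, in the order given above. The part of GC content in the difference between the combination and the other treatments was not tested.

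**Figure D2:**
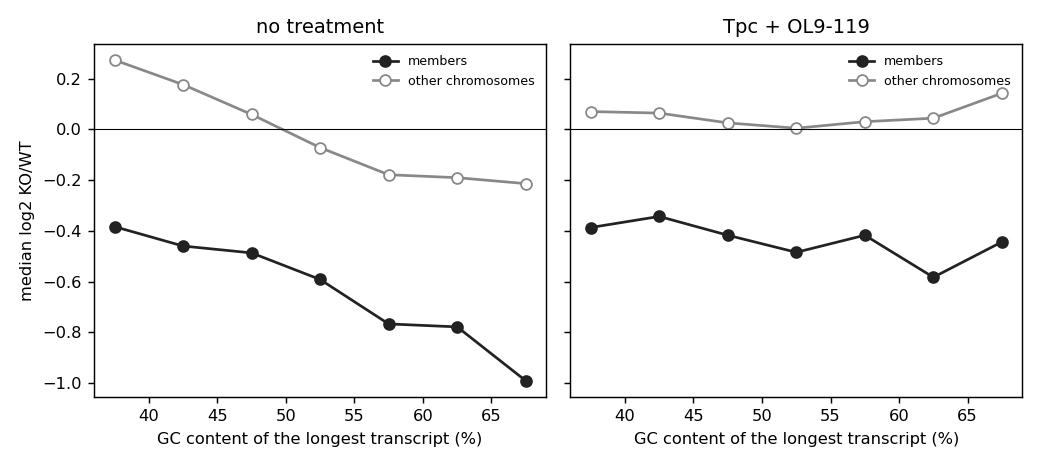
Median log2 PARP1-KO/WT difference in classes of 5 percentage points of GC content of the longest transcript (outer classes open-ended), for members (filled) and genes of other chromosomes (open), without treatment and with Tpc + OL9-119. The members lie below the other chromosomes in every class, and the medians on other chromosomes run from 0.27 to -0.21 without treatment and from 0.07 to 0.14 with both compounds, from the lowest to the highest class.

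Reads shared between genes are a limit on single values. Of the members, 137 share exonic bases with another gene on either strand and 52 on the same strand, and the strand column used for counting is not given in the sources used here. The 94 members without such overlap had a median of -0.73 and the 137 with overlap -0.64.

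The members were then ordered by role, with lists of 131 members in 10 groups. The lists were compiled with earlier results of these data known, and their medians stand beside -0.68 for all members and 0.04 for other chromosomes. Every list had a median below 0, from -0.37 for RNA processing and export to -0.82 for kinases, phosphatases and their regulators.

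Of the kinases and phosphatases, 12 of 12 members were lower in all 5 treatments. PPP1CA, a catalytic subunit of protein phosphatase 1, had a median of 180 CPM in WT (137 to 271) and of 113.8 CPM in PARP1-KO (79.2 to 129), without overlap. PAK1, a kinase of the actin cytoskeleton, had 141 CPM (122.5 to 161) against 112 CPM (93.5 to 125.7), and PPP6R3, a regulator of phosphatase 6, had 238 CPM against 221 CPM. The last 2 overlapped between genotypes, with mean log2 differences of -0.36 and -0.16.

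In the cytoskeleton and adhesion list 14 of 15 members were lower in all treatments, with a median of -0.76. CFL1, or cofilin, which severs actin filaments, had 583 CPM in WT (402 to 929) and 353 CPM in PARP1-KO (287 to 394). These ranges did not overlap. CTTN, or cortactin, had 348 CPM (275 to 418) against 243 CPM (174 to 280), and AHNAK, a very large scaffold protein, 690 CPM (375 to 1092) against 491 CPM (416 to 553). Both overlapped.

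Translation, folding and degradation genes had a median of -0.74, with 13 of 14 lower throughout. Besides FAU and GANAB, the list holds STIP1, a co-chaperone that joins HSP70 and HSP90. STIP1 had 515 CPM in WT (420 to 640) and 493 CPM in PARP1-KO (416 to 550), and its mean log2 difference of -0.06 was among those nearest 0.

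Lipid metabolism genes had a median of -0.64, with 11 of 14 lower in all treatments. FADS1 and FADS2, the desaturases that make polyunsaturated fatty acids, overlap, since FADS1 (positions 61799627 to 61829318, minus strand) lies within the span of FADS2 (61792980 to 61867354, plus strand). Without the strand column, reads of their shared parts cannot be told apart. FADS1 had 330 CPM in WT (293 to 386) and 241 CPM in PARP1-KO (209 to 272). FADS2 had 110.2 CPM (70.6 to 143) against 47.3 CPM (32.4 to 55.2). Neither gene overlapped between genotypes, and FADS2, with a mean log2 difference of -1.24, was the more reduced of the pair, with FADS1 at -0.46. LRP5, a Wnt co-receptor also placed in this list, averaged -0.92.

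For membrane traffic and autophagy the median was -0.63, with 13 of 14 lower throughout. RTN3, a reticulon of the endoplasmic reticulum, had 424 CPM in WT (359 to 517) and 287 CPM in PARP1-KO (243 to 333), without overlap. RAB6A, a GTPase of Golgi transport, had 246 CPM (206 to 323) against 191 CPM (157 to 231). Mitochondrial and redox genes had a median of -0.63 as well, with 9 of 12 lower throughout, and PRDX5, a peroxidase, averaged -0.47.

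Among genes of DNA replication, repair and chromosome segregation, 10 of 15 were lower in all treatments and the median was -0.60. BANF1, which bridges DNA at the reforming nuclear envelope, averaged -0.74, NUMA1, a spindle pole protein, -0.44, and CDCA5, the cohesin protector sororin, -0.15. Chromatin and transcription genes also had a median of -0.60, with 14 of 15 lower throughout. MTA2, of the NuRD complex, had 265 CPM in WT (231 to 326) and 163 CPM in PARP1-KO (134 to 179), without overlap. KDM2A, a histone demethylase, averaged -0.34 and RSF1, a remodelling factor, -0.12.

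Around cyclin D1 the 10 listed members at or near 11q13.3 had a median of -0.53, with 8 lower in all treatments. CCND1 itself (positions 69641156 to 69654474, plus strand), which drives entry into the cell cycle, had 116.2, 108, 116.3 and 127.4 CPM in untreated WT replicates and 75.3, 89.5, 97.4 and 84.2 CPM in untreated PARP1-KO replicates. The untreated groups did not overlap, whereas over all treatments the WT range of 75.5 to 147 CPM met the PARP1-KO range of 67.5 to 107 CPM. PPFIA1, a liprin, averaged -0.34. RNA processing and export, with NXF1, SF1 and SART1, a spliceosome protein at -0.52, had 8 of 12 members lower in all treatments.

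The rule did not use the responses to treatment, but they are not independent of it, since the same untreated libraries enter both the responses and the genotype differences that chose the window. DMSO, with median log2 responses of -0.03 (WT) and -0.01 (PARP1-KO), called 0 members in either genotype, and 0.0% and 0.0% of all tested genes. An unadjusted p under 0.05 was reached by 18 and 1 members, or 7.79% and 0.43%, against 10.8% and 1.86% of all tested genes, and DESeq2 called 0 as well.

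Tpc raised 3 members in WT cells and lowered none at an adjusted p under 0.01 of edgeR, against 0.553% of all tested genes raised and 0.304% lowered. Among the 12615 genes of other chromosomes 142 were raised, a share like that of 3 among 231, and 85 lowered. The 3 were NEU3, a ganglioside sialidase, POLD3, a subunit of DNA polymerase delta, and NXF1. NEU3 (positions 74988279 to 75018893, plus strand) had 26.1, 53.2, 53.5 and 48.5 CPM in untreated WT replicates and 78.6, 70.7, 77.4 and 74.0 CPM after Tpc. These groups did not overlap, and NEU3 rose by 0.73 ± 0.15 (SE) on the log2 scale (adjusted p = 0.0021). In PARP1-KO cells it had 39.99, 41.5, 42.2 and 39.7 CPM before and 61.5, 55.7, 63.0 and 57.7 CPM after Tpc, also without overlap, at 0.54 on the log2 scale with an adjusted p of 0.36. POLD3 had 113, 105, 88.6 and 104.4 CPM in untreated WT cells and 144, 162, 151 and 149 CPM after Tpc, a rise of 0.56 ± 0.12 (adjusted p = 0.0028). NXF1 rose by 0.52 ± 0.12 (adjusted p = 0.0059). Each of the 3 missed the threshold without one or another library, and with DMSO-treated cells as the comparator POLD3 alone of them passed. With offsets for exonic length and GC, NEU3 alone of them passed (adjusted p = 0.0040). POLD3 and NXF1 had adjusted p-values of 0.016 and 0.012 there. DESeq2 called 5 members.

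OL9-119 lowered 4 members in WT cells, namely ANAPC15, TRMT112, BANF1 and CFL1, and raised none, with 0.833% of all tested genes lowered and 0.449% raised. Among the 12615 genes of other chromosomes 223 were lowered, a share like that of 4 among 231. TRMT112 (positions 64316460 to 64317559, minus strand), an activator of several methyltransferases of RNA and protein, had 191, 143, 180 and 128.1 CPM in untreated WT cells. With OL9-119 it had 81.3, 118, 97.8 and 89.5 CPM, below all untreated values, and fell by 0.73 on the log2 scale, with an SE of 0.14 and an adjusted p of 0.00054. CFL1 had 837, 670, 773 and 627 CPM without treatment and 480, 589, 456 and 481 CPM with OL9-119. It fell by 0.54 with an SE of 0.11 and an adjusted p of 0.00085. TRMT112 was called whichever single library was left out, CFL1 was not called without untreated replicate 1 or OL9-119 replicate 3 (adjusted p up to 0.015), and leaving out 1 library ended the call of BANF1 for 5 libraries and that of ANAPC15 for 4. Against DMSO-treated cells the log2 difference of CFL1 was -0.56 (adjusted p = 0.00042). BANF1 fell by 0.66 and ANAPC15, a subunit of the anaphase-promoting complex, by 0.89, with overlapping groups for ANAPC15. Against DMSO-treated cells these 2 and TRMT112 had adjusted p-values of 0.026, 0.034 and 0.018.

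Tpc + OL9-119 lowered 14 members and raised 4 in WT cells, while 2.0% of all tested genes were lowered and 2.07% raised. Among the 12615 genes of other chromosomes 521 were lowered and 546 raised. The median response of all members was -0.20 on the log2 scale, and 158 of 231 had a negative value, whereas the genes of other chromosomes had a median of -0.0031. Relative to the GC class the members' median was -0.10. The lowered members were AAMDC, ANAPC15, TRMT112, FKBP2, PPP1R14B, BANF1, FAU, LAMTOR1, CFL1, CPT1A, GSTP1, POLR2G, CAPN1 and RAB1B. Those raised were DAGLA, which makes the endocannabinoid 2-arachidonoylglycerol, NEU3, DPF2, a subunit of BAF remodelling complexes, and POLD3.

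TRMT112 had 62.1, 81.2, 88.8 and 87.6 CPM under the combination in WT cells, all below the untreated values given above. It fell by 1.01 on the log2 scale with an SE of 0.14 (adjusted p = 8.2e-07). AAMDC had 55.9, 22.4, 50.4 and 25.5 CPM in untreated WT cells and 14.8, 13.9, 21.9 and 14.3 CPM under the combination, a difference of -1.25 with an SE of 0.26 (adjusted p = 0.00090). The groups did not overlap, although the untreated AAMDC values spread widely between replicates. CFL1 had 402, 464, 504 and 480 CPM under the combination and fell by 0.65 with an SE of 0.11 (adjusted p = 1.6e-05). ANAPC15 fell by 1.01, BANF1 by 0.82, FKBP2, a folding enzyme of the endoplasmic reticulum, by 0.88 and PPP1R14B, an inhibitor of phosphatase 1, by 0.83. DAGLA had 19.1, 33.2, 17.8 and 27.7 CPM without treatment and 53.7, 48.1, 40.8 and 38.2 CPM under the combination. Its rise was 0.89 ± 0.19 (adjusted p = 0.0013), without overlap. NEU3 rose by 0.73 ± 0.15 (adjusted p = 0.00075), and DPF2 and POLD3 by 0.46 and 0.45. With DMSO-treated cells as the comparator 10 of the 14 lowered and 2 of the 4 raised members were called. FAU, LAMTOR1, CPT1A, CAPN1, NEU3 and DPF2 were not, with adjusted p-values of 0.0139 for NEU3 and 0.0136 for DPF2.

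The members lowered by the combination were short, with a median exonic length of 1.92 kb against 4.65 kb over all members, and the raised ones had a median of 6.51 kb. Length moved with the libraries too. Over genes of other chromosomes, the slope of a library's log2 deviation per doubling of exonic length ran from -0.23 to 0.05 in untreated WT cells and from -0.07 to 0.04 in WT cells with both compounds. With offsets for exonic length and GC, 7 of the 14 lowered and 2 of the 4 raised members were still called, TRMT112, CFL1, BANF1, NEU3 and DAGLA among them. Without WT replicate 1 of the untreated cells the number of members called under the combination fell from 18 to 7, and without replicate 1 of the combination to 10. TRMT112, BANF1, CFL1 and PPP1R14B were called whichever single library of this comparison was left out.

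In PARP1-KO cells 0 members were called after Tpc, OL9-119 or the combination by edgeR, and 0 by DESeq2. Unadjusted p-values under 0.05 were reached by 15, 15 and 8 members, or 6.49%, 6.49% and 3.46%, against 5.92%, 3.22% and 4.29% of all tested genes. Few genes of any kind were called there, with 0.0138%, 0.00346% and 0.0% of all tested genes. The median member responses were -0.05, -0.08 and 0.02. TRMT112 in untreated PARP1-KO cells had 64.6, 94.5, 86.6 and 79.8 CPM, below every untreated WT replicate, and 79.7, 69.4, 73.5 and 62.9 CPM under the combination.

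Whether a member responded differently in the 2 genotypes was tested directly, with the limits that the Tpc doses differed and that each such difference is 1 genotype contrast minus another, both among those that chose the window. For Tpc, OL9-119 and the combination 0 members were called by edgeR and 0 by DESeq2, where 0.1%, 0.0657% and 0.27% of all tested genes were. At an unadjusted p under 0.05 there were 12, 9 and 35 members, or 5.19%, 3.90% and 15.2%. The shares over all tested genes were 7.41%, 6.80% and 11.8%, and those over genes of other chromosomes with the members' biotype and counts were 6.98%, 6.44% and 15.7%. The member nearest the threshold was TRMT112 under the combination, with an adjusted p of 0.035 and a difference of responses of 0.82 ± 0.20 (SE). For the combination the median member difference of responses was 0.24, and 0.07 relative to the GC class. The median for genes of other chromosomes was 0.01. Calls in WT and not in PARP1-KO cells are therefore not shown to differ between the genotypes for any member.

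Among the PARP1-KO libraries, DMSO replicate 3 stood apart from the other replicates of its condition. Its members had a median deviation of -0.47, against -0.25 to -0.22 in the other replicates, and its GC slope was -0.27 against -0.04 to -0.0032. Without it the DMSO median of the genotype difference was -0.63 and 88 members were lower. Within libraries that share the first part of their names, L01, L02 or L03, the median member difference between genotypes was negative in all 14 comparisons that could be made, from -0.81 to -0.25. Untreated L03 libraries were all WT, and some of these comparisons had 1 library of each genotype, such as Tpc in L01. The window was chosen on these same libraries, so the negative signs carry no test.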

How the data were processed

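RNA of WT and PARP1-KO HEK293A cells (40 libraries) was sequenced as paired reads of directional poly(A) libraries. The authors used STAR 2.7.8 for alignment to hg38 and deposited raw counts per gene, not normalized or pooled. Which strand column was kept is not given in the sources used here. The submitters' processing notes also name FastQC 0.11.9 and Picard 2.26.6.

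Here, genes with at least 10 counts in all were kept (28922 of 58395). Positions, lengths and GC content came from GENCODE 44, which matched 57754 genes. After TMM scaling, edgeR 4.0.16 (R 4.3.3) gave quasi-likelihood tests of the counts, with 1 group per condition and no covariate. P-values were adjusted by the Benjamini-Hochberg method across every tested gene, and the threshold was 0.01. The SE is the log2 difference divided by the square root of F. Alternatives were DESeq2 1.42.0, RLE, TMM without chromosome 11, other filters, the replicate number as a block, the library name prefix as batch, offsets for exonic length and GC, DMSO as comparator and leaving out each library. Values relative to a GC class were chosen after seeing the data. Summaries used Python 3.11.15 and pandas 2.3.3. The procedure was tested on simulated data.

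The members and lists were chosen with earlier results of these data known. Named genes were PARP1, the genes nearest to the limits of the window and of the count rule, the 6 lowest and 6 highest mean genotype differences and 5 highest WT levels per kb among members with at least 50 mean counts, up to 4 called members in each direction per response, and the 3 most counted genes of each list. Members called after treatment beyond that number were named after their values were seen. Depth was 3455043 to 20379777 counts, so members of low counts carry large counting error. No 2 replicates agreed within sampling noise (chi-square per degree of freedom at least 2.33 over 60 pairs).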

Additional observations from a re-analysis of the deposited data

Results flagged for a closer look

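Of 310 groups of 4 replicates that were checked for 1 replicate far from the rest, over 3 library measures and 28 genes, 28 or 9.03% were picked out, where chance gives about 1 in 20. Libraries recur in the list, so the picks are not independent.

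PARP1-KO DMSO replicate 3 had the lowest median deviation of the members (-0.47 log2 units, the others up from -0.25), the lowest share of counts on members (1.13%, the others from 1.27%) and the lowest GC slope (-0.27, the others from -0.04). In the same library GANAB (427 CPM), SF1 (278 CPM) and BANF1 (85.2 CPM) were the lowest of 4 and POLD3 (161 CPM) the highest. PARP1-KO untreated replicate 1 had a median deviation of -0.39, the others from -0.23, and 43.9 CPM of PARP1.

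WT DMSO replicate 3 had the highest FAU (600.1 CPM), FKBP2 (120.2 CPM) and AAMDC (66.4 CPM) of its group, and the lowest PARP1 (737 CPM). WT OL9-119 replicate 2 had the highest FTH1 (1097 CPM), FAU (334 CPM) and AAMDC (30.6 CPM), and the lowest LIPT2 (6.28 CPM) and DAGLA (28.9 CPM). WT Tpc replicate 2 had the highest ANAPC15 (61.1 CPM) and the lowest EHBP1L1 (26.7 CPM) and PARP1 (762 CPM).

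Single values apart from their group were FTH1 in WT Tpc + OL9-119 replicate 2 (1126 CPM, the highest), MAP6 in replicate 1 of that condition (23.0 CPM, the lowest) and AAMDC in its replicate 3 (21.9 CPM, the highest). The remaining values were MAP6 in WT OL9-119 replicate 4 (45.6 CPM, the lowest), LTO1 in WT Tpc replicate 3 (40.1 CPM, the lowest), POLD3 in WT DMSO replicate 1 (105 CPM, the highest) and RAB1B in PARP1-KO OL9-119 replicate 1 (94.7 CPM, the lowest). The test of a difference in response between genotypes called 0 members by edgeR and 0 by DESeq2, with 12, 9 and 35 at an unadjusted p under 0.05.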

How the results depend on the processing

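Of 182 recomputations of the counts and medians with other settings, 171 stayed within 1.5 times the count or within 1 SD of the replicates. Some of these were counts of 0 that stayed at 0. No median changed sign, and for counts a reversal could not be recorded. The cause was not tested for the 11 that moved. With offsets for exonic length and GC the median genotype difference of the members was -0.56 under Tpc, -0.53 under OL9-119 and -0.54 under both compounds, so that the combination was no longer nearest 0. Relative to the GC class it was -0.58 with Tpc and -0.53 with OL9-119. After Tpc in WT cells 5 members were called by DESeq2, 5 without a filter and 1 against DMSO-treated cells. After OL9-119 in WT cells 7 were called without a filter and 1 against DMSO. Without a filter, 1 member was called in the difference of responses to Tpc + OL9-119. The same offsets moved the calls over all genes in untreated cells from 1659 lower and 1727 higher in PARP1-KO to 2236 and 1288, with 119 lower and 2 higher members in both fits.

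Leaving out single libraries gave 1 to 4 members called after Tpc in WT cells, 1 to 6 after OL9-119 and 7 to 21 after the combination, and 0 to 1 in the difference of responses to the combination. Without untreated WT replicate 1 the counts were 1, 1 and 7, and the 1 member of the last count appeared without untreated WT replicate 4. Genotype counts ranged from 90 to 112 in untreated cells and from 46 to 60 under both compounds. Same-numbered libraries of a genotype had deviations correlated at 0.08 on average (from -0.24 to 0.52), against -0.02 for differently numbered ones (from -0.48 to 0.34). Since not every pair passed 0.1, the numbers were not taken to pair the samples. With the replicate block 66 members were lower under both compounds, and 18 members were called after the combination in WT cells. Depth limits the members under 50 counts, of which 13 of 31 were lower in all treatments.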
